A study of Mus musculus with 16 samples.

Results

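This report describes 41 autosomal genes whose level in some of 16 mice was less than 5% of their highest level. RNA came from brain oligodendrocytes, the cells that make myelin, which had been sorted for the O4 surface antigen. A gene was chosen if it lies on chromosomes 1 to 19, if its mean over the 16 libraries was at least 1 CPM (counts scaled so that every library has the same total), and if 2 to 14 libraries held less than 5% of its highest CPM. Of 32207 genes in the table, 12940 were autosomal with a mean CPM of at least 1. Of these, 47 met the rule, and 6 of the 47 were left out by the start of their symbols (H2-, Hb, Rps, Rpl, Slc, Efn or Pcdh). A library at or above 5% of a gene's highest CPM is called on for that gene here, and a library below it is called off. Off is therefore relative and need not mean absent: Cwc22 had 9.58 to 12.1 CPM in its off libraries. The split into on and off was the reason for choosing the genes, so it is described and not tested. The rule used no exposure or sex label.

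OF-1 is an outbred stock, so the mice of a group are not genetically identical. In outbred animals a gene can be silent in some individuals because they carry another allele, lack a copy, or have extra copies of a segment. A processed pseudogene is a copy of a gene's messenger RNA that was written back into the genome, and whether a given copy is present can differ between mice. The nuclear genome also holds stretches copied from the mitochondrial genome. Reads from such copies are nearly the same as reads from their source genes, so small differences in sequence decide where a read is counted.

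The groups were male BPA, female BPA, male control and female control, with 4 libraries each. Exposed pups received bisphenol A (BPA), a building block of plastics with oestrogen-like action, through their mothers' drinking water from gestational day 7 until brains were taken at postnatal day 16, and control pups did not. The labelled dose is 40 µg/kg/day and the design text also gives 250 µg/mL of water, which were not reconciled here. Litter and genotype are not labelled. Littermates share their mother's exposure, so exposure and litter cannot be told apart, and genotype was not measured in these files. The study took brains of 10 BPA and 9 control mice, and RNA was made from 4 samples per group. Each library is taken as 1 mouse, and p-values cover only the variation seen among these 16.

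Libraries held 23603816 to 42575326 counts. The 10 oligodendrocyte markers summed to 110225 to 145645 CPM per library, with counts for all 10 in every library. The 5 neuronal markers summed to 20 to 29.9 CPM. The library male BPA 2 stood apart: its 7 astrocyte markers summed to 5919 CPM, against a median of 1628 CPM over all libraries. It was also highest for precursor markers (950 CPM, median 581 CPM), endothelial markers (78.8 CPM, median 38.6 CPM) and mural and fibroblast markers (73 CPM, median 27.1 CPM), and lowest for oligodendrocyte markers (110225 CPM). It had the most members on, 37 of 41, and the part of other cells in this was not tested. In bulk RNA, fewer cells of a type and less RNA per cell cannot be told apart.

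What the members had in common beyond the rule was their kind. By the GENCODE M21 annotation, 17 were processed pseudogenes and 2 unprocessed pseudogenes, together 46.3% of members, against 1.11% of the 12899 other autosomal genes with a mean CPM of at least 1. Protein-coding genes made up 29.3% of members, against 94% of the others. Members with a single exon made up 48.8%, against 3.86% of the others. At least 10% of the 50-base words of the transcript also occurred in another gene for 63.4% of members, against 7.52% of the others. In a search of all annotated transcripts, 24 members matched another gene at 90% identity or more over at least 80% of their length. These are called copies below, which does not say which gene came from which. Cwc22, a protein-coding gene with 21 exons, is among them. The closest match is here the protein-coding gene with the best alignment score, or another gene where no protein-coding gene matched. It lay on another chromosome for 21 of the 24. For 4 copies it was a mitochondrial gene, and for 20 it was a nuclear gene. Identity ran from 92.9% to 99.9%. How reads that fit several places were handled is not given in the sources used here, so the values of copies, and of the genes they match, are uncertain.

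The following stretches show bases by which copies and sources can be told apart. Each pair is a window of 60 bases, 5′ to 3′ on the transcript, with the bases that differ in capitals. They were read from the GENCODE M21 transcripts. Each window was chosen as the one with the most differing bases within the source's coding part, so it overstates how far the copies differ. In the windows of Gm13340, Gm4076 and Gm9347 4, 9 and 6 of 60 bases differ, while identity over the whole match was 97.6%, 95.2% and 97.4%. The first pair is from Gm13340 on chromosome 2, a copy of mt-Co1, which encodes subunit I of cytochrome c oxidase.
Gm13340: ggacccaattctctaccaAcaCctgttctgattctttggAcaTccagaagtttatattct
mt-Co1: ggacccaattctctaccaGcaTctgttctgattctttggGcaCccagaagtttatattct
Gm4076 on chromosome 13 is a copy of mt-Nd5, which encodes a subunit of respiratory complex I.
Gm4076: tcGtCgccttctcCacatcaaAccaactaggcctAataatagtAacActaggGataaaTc
mt-Nd5: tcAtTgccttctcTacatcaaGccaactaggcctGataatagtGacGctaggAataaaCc
Gm9347 on chromosome 7 is a copy of Phgdh on chromosome 3, which encodes the first enzyme of serine synthesis.
Gm9347: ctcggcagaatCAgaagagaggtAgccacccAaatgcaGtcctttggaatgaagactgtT
Phgdh: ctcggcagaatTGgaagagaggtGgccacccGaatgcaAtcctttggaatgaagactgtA
Gm13394 on chromosome 2 differs from Gapdh on chromosome 6, a glycolytic enzyme gene, by 1 base in 1000, and that base lies in this window.
Gm13394: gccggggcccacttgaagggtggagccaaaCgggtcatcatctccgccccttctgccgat
Gapdh: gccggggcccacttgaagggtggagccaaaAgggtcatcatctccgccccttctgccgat

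Over 41 members and 16 libraries there were 656 states, of which 478 were on and 178 were off. In 34 of the 178 off states the member had 0 counts. A count of 0 allows a level of up to 3 counts per library, by counting error alone. A member was on in 5 to 14 libraries, with a median of 12. For 26 members the split by the rule was also the widest gap between neighbouring libraries when CPM were put in order. For the other 15 the widest gap lay elsewhere, and their low libraries lay on both sides of 5%. Members just inside the threshold were Itga2, Gm7887 and 2610507I01Rik, whose second lowest library had 4.68%, 4.67% and 4.61% of the highest CPM. Ankrd35, Gm10232 and Gm6768 were just outside, with 5.04%, 5.23% and 5.48%.

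**Figure D1:**
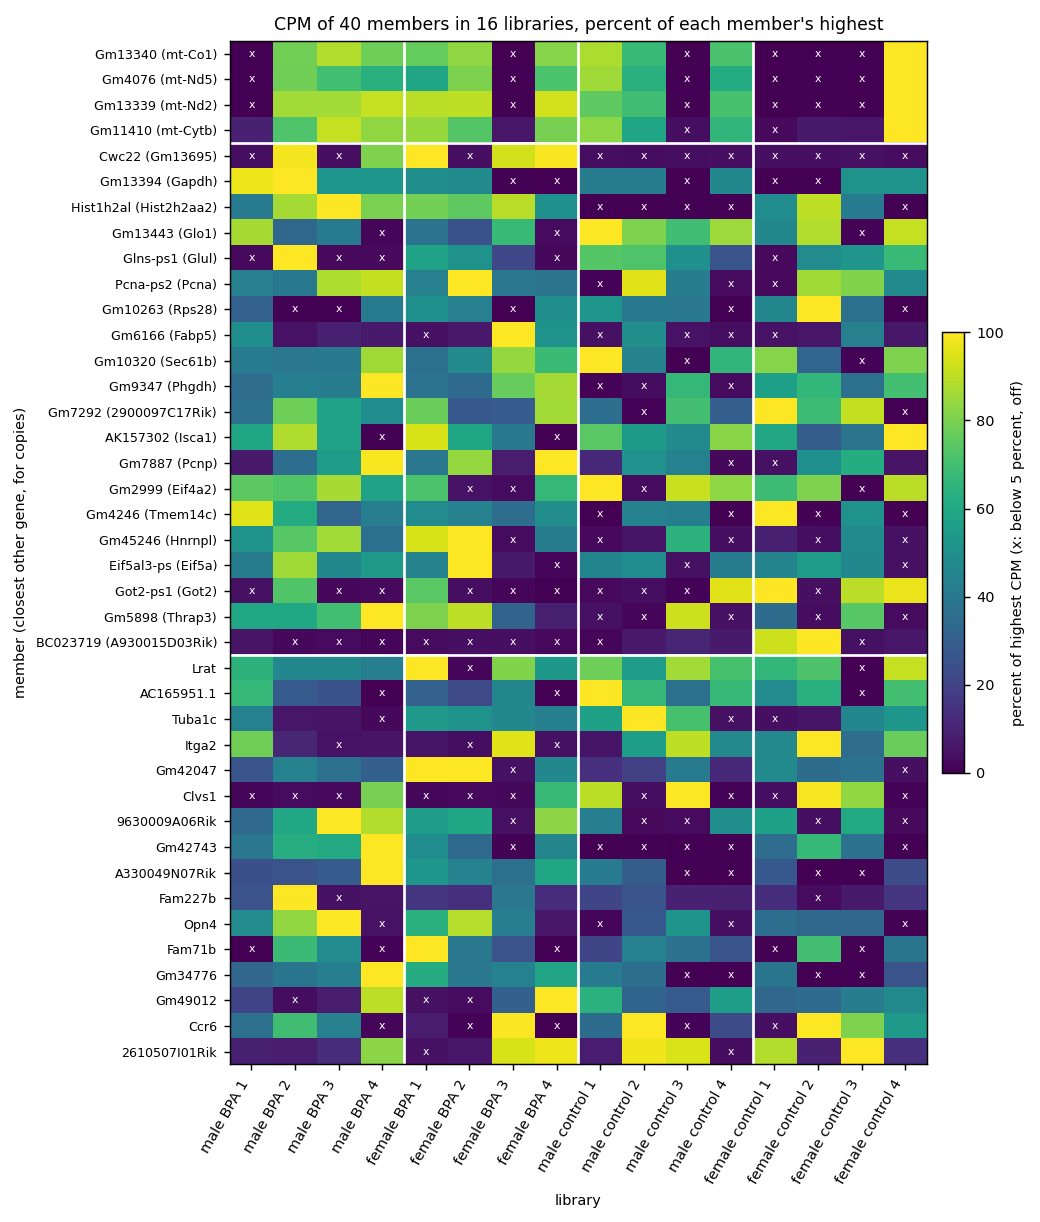
Colour gives the CPM of 40 members (rows) in the 16 libraries (columns) as percent of each member's highest CPM, with an x where it was below 5%. Rows run from copies of mitochondrial genes through copies of nuclear genes to other members, and the off states fall in all 4 groups.

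The states did not split cleanly by exposure. Members were on in 79.3% of states in BPA libraries and 66.5% of states in control libraries. By group the share was 81.7% in male BPA and 76.8% in female BPA libraries, against 66.5% in both control groups. More BPA than control libraries were on for 24 members, fewer for 12 and as many for 5. Some members share 1 split, as given below, and each is counted, so these are not separate observations of exposure. However, 25 members were both on and off within BPA and within control libraries, and 7 were both on and off within all 4 groups. No member was on in all BPA and off in all control libraries, or the other way round. Only Cwc22 had all of its on libraries within 1 exposure. Members on per library ranged from 28 to 37 in BPA and from 24 to 31 in control libraries.

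The 4 copies of mitochondrial genes shared 1 split into high and low libraries. Gm13340, the mt-Co1 copy, had 628, 706 and 623 CPM in male BPA 2, 3 and 4 and 2.34 CPM in male BPA 1. In female BPA libraries 1, 2 and 4 it had 609, 665 and 653 CPM, and in female BPA 3 it had 2.38 CPM. In male control libraries 1, 2 and 4 it had 700, 539 and 570 CPM, and in male control 3 it had 1.26 CPM. In female control libraries it had 1.58, 1.26 and 1.26 CPM, and 798 CPM in female control 4. All 10 high libraries lay within 1.48-fold of each other, and the lowest of them was 227-fold above the highest of the 6 low ones, the widest gap of any member on the log2(CPM + 0.05) scale. High and low libraries occurred in every group.

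Gm13339, a copy of mt-Nd2 (complex I) and the neighbour of Gm13340, was high in the same 10 libraries, at 7.96 to 11.5 CPM, and had at most 0.0665 CPM in the other 6. Gm4076, the mt-Nd5 copy on chromosome 13, was again high in those 10, at 26.7 to 45.4 CPM, and had at most 0.347 CPM in the other 6. Gm11410, a copy of mt-Cytb on chromosome 4, had 3.06 to 5.21 CPM in those 10 and 0.131 to 0.486 CPM in the other 6, of which 4 lay above its threshold of 0.261 CPM. These genes are annotated on 3 chromosomes. Whether their reads came from those places or from 1 shared source was not tested. Of the 4 mitochondrial genes themselves, none fell cleanly into the same 2 sets. mt-Co1 ranged from 2358 to 3418 CPM in the high libraries and from 2464 to 3274 CPM in the low ones. For mt-Nd5 the ranges were 707 to 1039 CPM and 717 to 1085 CPM. mt-Nd2 leaned lower in the high libraries, with 653 to 883 CPM against 778 to 1087 CPM. mt-Cytb leaned higher there, with 3105 to 4502 CPM against 2639 to 3590 CPM. Gm13341, an annotated pseudogene beside Gm13340, had 0.676 to 1.57 CPM in all 16 libraries. Between exposures, 6 of 8 BPA and 4 of 8 control libraries were high for each of the 4 copies, counting Gm11410 by its widest gap.

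**Figure D2:**
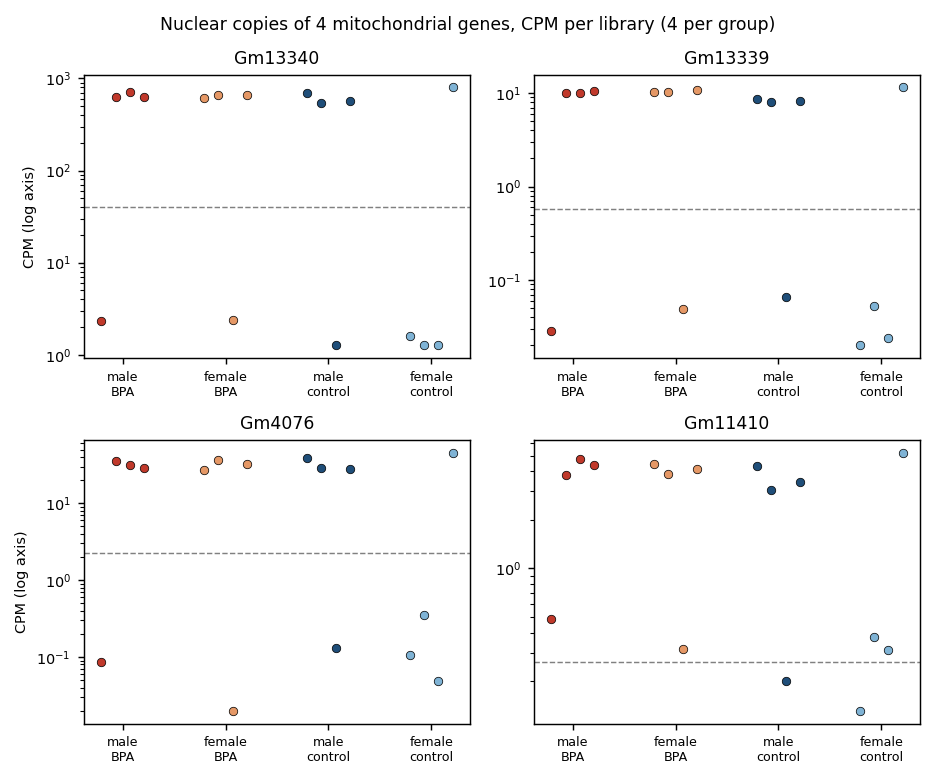
Each point is 1 library's CPM on a log axis for Gm13340, Gm13339, Gm4076 and Gm11410, in male BPA, female BPA, male control and female control libraries from left to right; libraries at 0 are drawn at 0.02 CPM and the dashed line is 5% of the highest CPM. The same 10 libraries are high in all 4 panels.

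A second set of members was off in the libraries with the least Glo1. Glo1, which encodes glyoxalase 1, an enzyme that removes methylglyoxal, is on a list of genes known to vary between mouse strains, and a segment of chromosome 17 around it is known to be duplicated in some strains. Gm13443, the Glo1 copy on chromosome 2, had 0.13, 0.297 and 0.0966 CPM in male BPA 4, female BPA 4 and female control 3, and 2.65 to 10.6 CPM in the other 13 libraries. AC165951.1, an antisense transcript on chromosome 17 that is 12 gene places from Glo1, was off in the same 3 libraries with 0, 0 and 0.0724 CPM, and had 2.91 to 13.1 CPM in the other 13. It was in the same state as Gm13443 in all 16 libraries.

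Glo1 itself had 41.9 CPM in male BPA 4, 42.4 CPM in female BPA 4 and 40.3 CPM in female control 3, the lowest 3 of 16. In the other BPA libraries Glo1 had 120, 72.7 and 73.8 CPM (males) and 68, 68.7 and 90.6 CPM (females). In the other control libraries it had 146, 111, 88.7 and 109 CPM (males) and 102, 118 and 117 CPM (females). Male control 1 was highest for Glo1, Gm13443 and AC165951.1 alike. Btbd9 and Dnah8, also of this region, had ranges that overlapped between these 3 libraries and the other 13. Btbd9 had 38.1, 36.3 and 42.8 CPM in male BPA 4, female BPA 4 and female control 3, and 31.5 to 55.7 CPM in the other 13 libraries. Dnah8 had 3.85, 2.92 and 1.98 CPM in those 3, and 1.86 to 6.97 CPM in the other 13. The values of 2.92 and 1.98 CPM were among its lowest. Glp1r had at most 0.13 CPM in any library, and further genes of the region are not given here. Which gene the Gm13443 and Glo1 reads came from was not tested, since the copy matches Glo1 at 99.5%. AC165951.1 overlaps Glp1r and Umodl1 on the other strand, and the strand setting of the counting is not given in the sources used here. In all, 15 members overlap a gene on the opposite strand, and to which gene such reads belong was not tested.

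For 3 nuclear copies the source gene was lower in every library where the copy was on than in any where it was off. Got2-ps1, a copy of the mitochondrial aspartate aminotransferase gene Got2, had 2.37 CPM in male BPA 2, 2.43 in female BPA 1, 3.11 in male control 4, and 3.26, 2.92 and 3.17 in female control 1, 3 and 4. It had at most 0.143 CPM in the other 10. Got2 had 30.8 to 34.8 CPM in those 6 libraries and 36.8 to 40.8 CPM in the other 10. Gm7292, a noncoding copy of 2900097C17Rik, was off in male control 2 and female control 4 alone, where 2900097C17Rik had 39.8 and 37.6 CPM, against 26.6 to 36.5 CPM elsewhere.

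Gm9347, the Phgdh copy, was off in male control 1, 2 and 4, at 0.0559, 0.159 and 0.142 CPM. Phgdh had 45.9, 54.7 and 49.9 CPM in these libraries and 17 to 39.7 CPM in the other 13. Gm9347 was highest, at 3.23 to 4.89 CPM, in male BPA 4, female BPA 3 and 4, male control 3, and female control 2 and 4. In these 6 libraries Phgdh had 20.6, 21.4, 21, 17, 17.8 and 17.6 CPM, its 6 lowest values. In the remaining 7 libraries Gm9347 had 1.71 to 2.76 CPM and Phgdh 32.5 to 39.7 CPM. Gm6166, a copy of Fabp5, a fatty acid binding protein gene, had 15.5 CPM in female BPA 3, where Fabp5 had 32.7 CPM. It had 7.74, 7.92, 7.68 and 6.76 CPM in male BPA 1, female BPA 4, male control 2 and female control 3, with 59.2, 56.7, 58.4 and 52.3 CPM of Fabp5. In the other 11 libraries it had 0.57 to 1.35 CPM and Fabp5 75.6 to 109 CPM. Among all 24 copies, the ranges of the matched gene did not overlap between on and off libraries for 4 (lower for 3 where the copy was on, higher for Gm13443), and overlapped for 20. The matched gene had a mean CPM of at least 1 for 22 of the 24. For Cwc22 and Hist1h2al it had at most 0.026 CPM, so its overlap there says nothing. With states split at the widest gap, 6 did not overlap. These ranges are a description, because the libraries were sorted by the copy's own value.

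**Figure D3:**
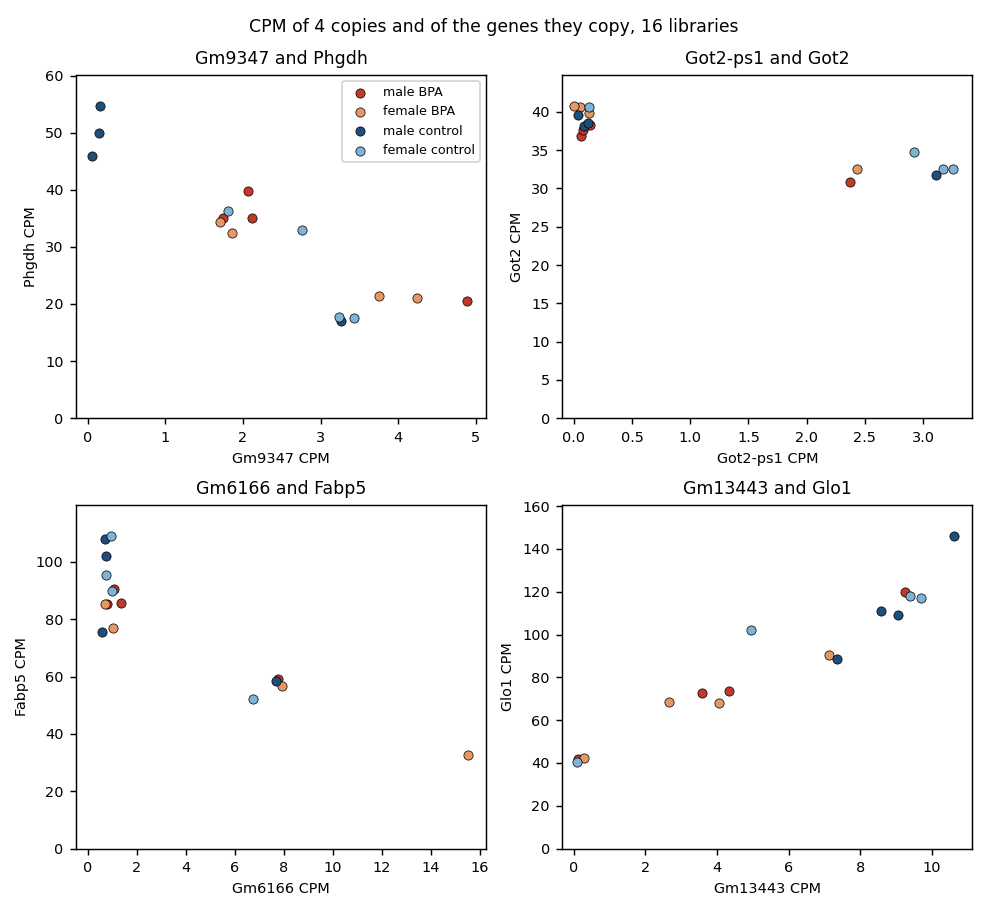
Each point is 1 library, with the copy's CPM on the horizontal axis and the CPM of the gene it copies on the vertical axis. Phgdh, Got2 and Fabp5 are lowest where Gm9347, Got2-ps1 and Gm6166 are highest, and Glo1 is lowest where Gm13443 is off.

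Several copies had an intermediate level as well as a high and a low one. Gm13394, the Gapdh copy, had 47.8 and 49 CPM in male BPA 1 and 2, and 20.7 to 25.8 CPM in 9 libraries of all 4 groups. It had 0.0267 to 0.294 CPM in female BPA 3 and 4, male control 3, and female control 1 and 2. Gm13394 matches 144 genes, and Gapdh itself had 5.1 to 11.2 CPM in this table. Pcna-ps2, a copy of the replication clamp gene Pcna, had 6.88 to 8.47 CPM in 6 libraries, 3.26 to 4.04 CPM in 7 and at most 0.256 CPM in male control 1, male control 4 and female control 1. Gm10263, a copy of Rps28, a ribosomal protein gene, had 11.5 CPM in female control 2, 3.63 to 6.01 CPM in 10 libraries and at most 0.078 CPM in 5. Glns-ps1, a copy of the glutamine synthetase gene Glul, had 13.6 CPM in male BPA 2 and 0.338 to 0.371 CPM in male BPA 1, 3 and 4. In female BPA libraries it had 7.81, 6.95, 2.92 and 0.297 CPM. It had 10, 9.83, 6.85 and 3.53 CPM in male control libraries and 0.368, 6.55, 7.1 and 9.14 CPM in female control libraries. Above its low level, Glns-ps1 was thus spread from 2.92 to 13.6 CPM and not set apart into an intermediate and a high level. Glul had 1358 CPM in male BPA 2, the library with the most astrocyte marker RNA (5919 CPM), and 527 to 910 CPM elsewhere. The part of other cells in the Glns-ps1 value of that library was not tested.

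**Figure D4:**
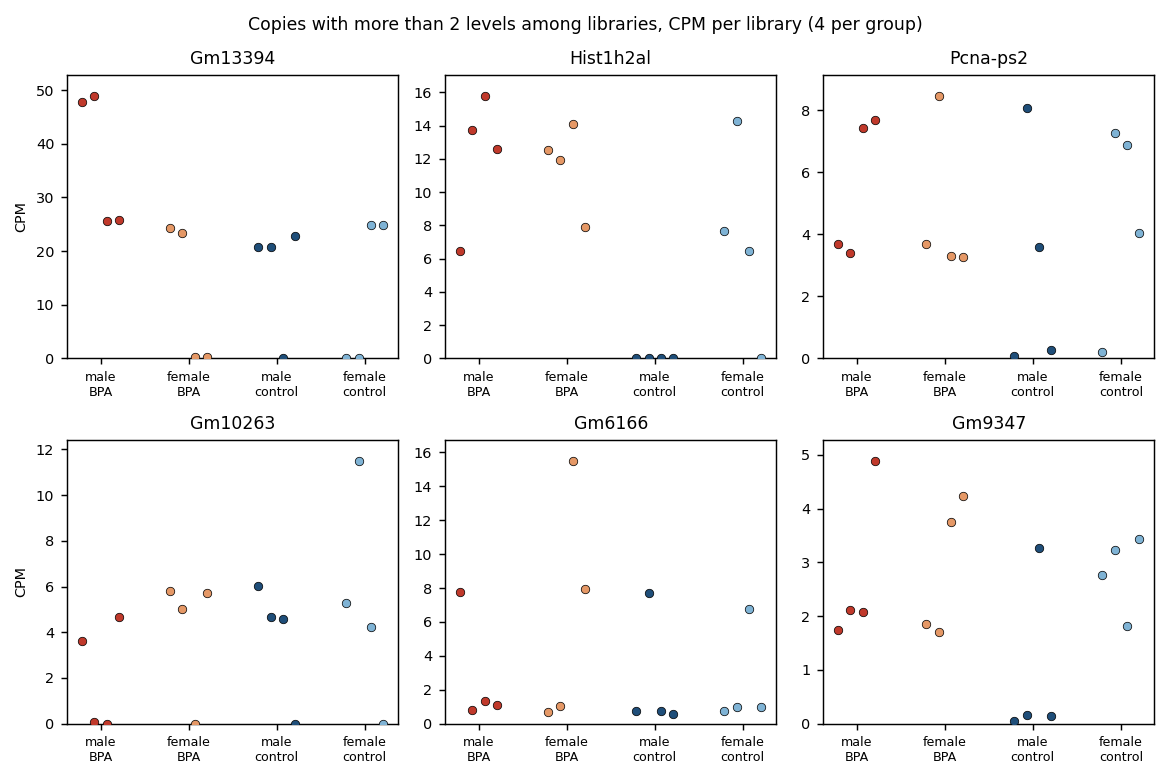
Each point is 1 library's CPM on a linear axis for Gm13394, Hist1h2al, Pcna-ps2, Gm10263, Gm6166 and Gm9347, in male BPA, female BPA, male control and female control libraries from left to right. Points lie at a low, an intermediate and a high level; for Gm13394 the high level, 47.8 and 49 CPM, is seen in male BPA 1 and 2.

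Cwc22 was the member whose on libraries were all BPA libraries. It encodes a spliceosome factor that helps to place the exon junction complex, and it lies in a segment of chromosome 2 known to vary in copy number among mice. Cwc22 had 269 and 221 CPM in male BPA 2 and 4, and 10.7 and 10.9 CPM in male BPA 1 and 3. It had 274, 255 and 271 CPM in female BPA 1, 3 and 4, and 11.1 CPM in female BPA 2. All 8 control libraries had 9.58 to 12.1 CPM. So 5 of 8 BPA libraries were high, 3 of 8 BPA libraries lay within the control range, and no library lay between 12.1 and 221 CPM. The fitted difference, BPA minus control, was 2.88 ± 1.03 (log2, SE), with a limma-voom adjusted p of 0.492 over all genes tested. Its closest match, Gm13695, is 1 of 7 such genes, and had at most 0.026 CPM.

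Hist1h2al, annotated as a histone H2A pseudogene on chromosome 13, was on in all 8 BPA and in 3 of 8 control libraries. It had 6.45, 13.7, 15.8 and 12.6 CPM in male BPA and 12.5, 11.9, 14.1 and 7.92 CPM in female BPA libraries. The 4 male control libraries had at most 0.0398 CPM, and the female control libraries had 7.67, 14.3, 6.45 and 0.0235 CPM. Its difference was 5.39 ± 1.59 (log2, SE), with a limma-voom adjusted p of 0.354. This adjusted p depends on female control 4, the only library whose state differed from the rest of its group. Without female control 4 each group was wholly on or wholly off, and the SE fell to 0.57. The difference was then smaller, 4.35, and the limma-voom adjusted p was 0.0217. Without that library the limma-voom adjusted p of Hist1h2al also passed the threshold for BPA minus control in males (0.0141), for female minus male (0.00991) and for the BPA effect in females minus that in males (0.0358). With it, none of these passed. Gm42743, a long noncoding RNA on chromosome 3, was in the same state as Hist1h2al in 15 of 16 libraries, all but female BPA 3, where it had 0.0245 CPM. It had 2.12 to 6.17 CPM in the other 7 BPA libraries, at most 0.0398 CPM in male control libraries and 2.21, 4.14, 2.32 and 0 CPM in female control libraries. The closest match of Hist1h2al, Hist2h2aa2, is 1 of 19 such genes and lies on chromosome 3, 12 gene places from Gm42743. Gm42743 overlaps the histone gene Hist2h2bb on the same strand and Gm20628 on the other strand. Where the reads of Hist1h2al and of Gm42743 came from was not tested. Gm42743 differed by 3.86 ± 1.53 (log2, SE), with a limma-voom adjusted p of 0.547, and by 2.83 to 4.74 with 1 library left out at a time.

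Gm34776 and A330049N07Rik are neighbouring long noncoding RNAs on chromosome 10 and were in the same state in all 16 libraries. Gm34776 had 1.46, 1.72, 1.9 and 4.42 CPM in male BPA, 2.73, 1.77, 1.94 and 2.58 CPM in female BPA, 1.82, 1.59, 0 and 0 CPM in male control and 1.71, 0, 0 and 1.13 CPM in female control libraries. Both were listed at 0 in 4 control libraries and were on in all 8 BPA and in the other 4 control libraries. The differences were 3.89 ± 1.01 for Gm34776 and 3.98 ± 1.06 for A330049N07Rik (log2, SE), with limma-voom adjusted p of 0.27 and 0.285. A330049N07Rik was highest in male BPA 4, at 5.96 CPM.

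Gm5898, a copy of the splicing factor gene Thrap3, was on in 8 BPA and 3 control libraries. It had 0.784 to 2.45 CPM in 7 BPA libraries and 0.212 CPM in female BPA 4. Control libraries had 2.26 CPM in male control 3, 0.867 and 1.81 CPM in female control 1 and 3, and 0.0398 to 0.114 CPM in the other 5. Its difference was 2.30 ± 0.74, with a limma-voom adjusted p of 0.423. Gm9347, whose off libraries were all male controls, differed by 1.56 ± 0.48, with a limma-voom adjusted p of 0.384.

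BC023719 was the member with the most one-sided split towards control libraries. It is an antisense transcript on chromosome 17 that overlaps H2-T10, a gene of the major histocompatibility complex, on the other strand. By the rule it was on in 1 BPA and 6 control libraries. Its BPA libraries had 0.0781 to 0.343 CPM. Male control libraries had 0.112, 0.438, 0.665 and 0.456 CPM, and female control libraries had 5.93, 6.41, 0.29 and 0.376 CPM. Its high level was therefore seen in 2 female control libraries, and the split by the rule falls within its low values. Its difference was -1.82 ± 0.95, with a limma-voom adjusted p of 0.706. Split at the widest gap, BC023719 was high in 0 BPA and 2 control libraries. By the same split Itga2, described below, was high in 2 BPA and 7 control libraries.

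**Figure D5:**
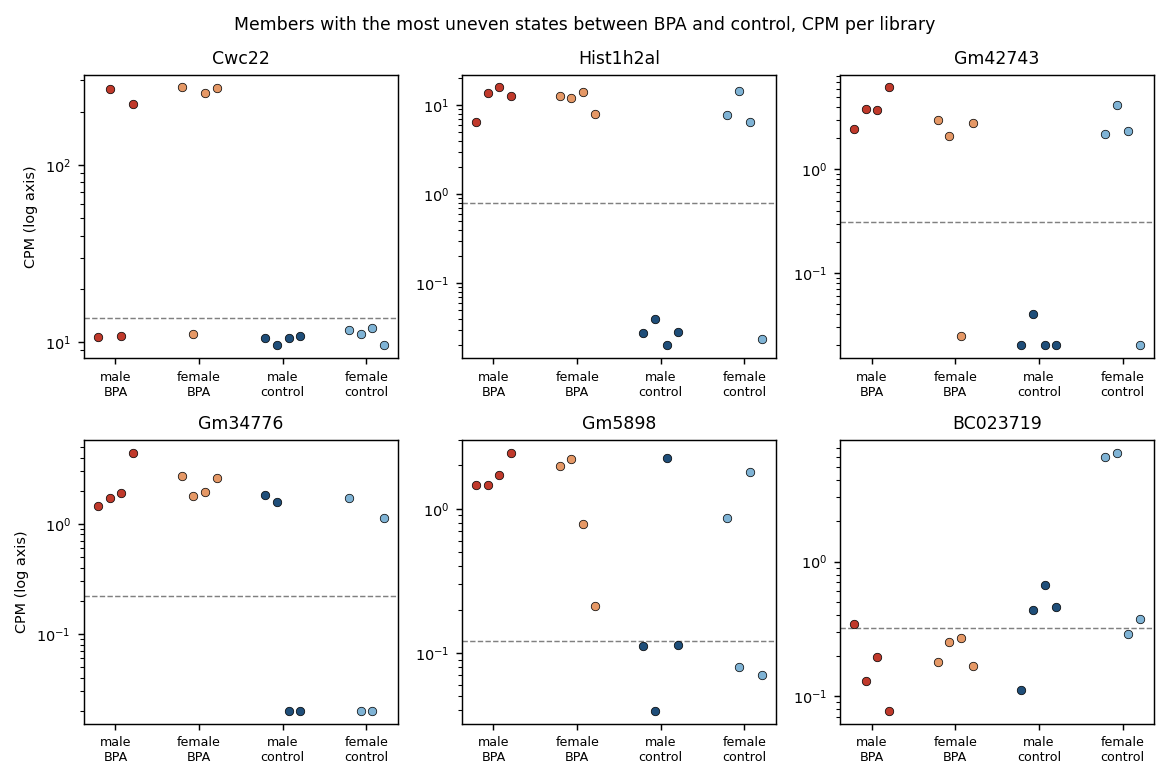
Each point is 1 library's CPM on a log axis for Cwc22, Hist1h2al, Gm42743, Gm34776, Gm5898 and BC023719, in male BPA, female BPA, male control and female control libraries from left to right; libraries at 0 are drawn at 0.02 CPM and the dashed line is 5% of the highest CPM. Cwc22 is high in 5 BPA libraries and BC023719 in 2 female control libraries.

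All 41 members passed the filter on low counts, and 16339 genes were tested. Results are given for 40 members. With limma-voom and adjustment over all genes, 0 of the 40 were called between BPA and control over both sexes, where 0.0184% of all genes tested were called. At an unadjusted limma-voom p below 0.05 there were 11 of 40 members, where 7.69% of all genes tested had such a p. Among these 40, leaving out 1 library at a time brought 1 member past the threshold, Hist1h2al without female control 4, as given above. In males 1 of all 41 members was called and 0 of these 40, beside 0.00612% of all genes. Of the 40, 9 had an unadjusted p below 0.05, beside 7.96%. In females 0 of the 40 were called, beside 0% of all genes, and 6 had an unadjusted p below 0.05, beside 4.55%. The difference between the sexes in the BPA effect was called for 0 of the 40, beside 0% of all genes, and 3 had an unadjusted p below 0.05, beside 4.72%.

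The size of the members' differences came with a large error. The median of the members' differences over both sexes was 0.94 (log2, BPA minus control), with 26 higher and 14 lower, against 0.003 over all genes tested, of which 51.2% were higher. The median absolute difference was 1.54 and the median SE was 0.95, against 0.07 and 0.10 over all genes. Members were chosen for a wide spread between libraries, so a large difference and a large SE follow from the rule. Members that share 1 split are each counted among those higher or lower. Between 8 BPA and 8 control libraries the CPM of 0 of the 40 members did not overlap, beside 0.0796% of all genes. Between the 4 male BPA and 4 male control libraries, 3 of the 40 did not overlap, beside 4.61% of all genes. These were Hist1h2al, Gm13394 and Gm42743, each higher in BPA. Between the 4 female BPA and 4 female control libraries, 3 of the 40 did not overlap, beside 3.24% of all genes: Gm34776 and A330049N07Rik were higher and BC023719 was lower in BPA.

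Exact two-sided permutation tests on mean log2(CPM + 0.1) were run for the 8 members whose differences are given above, with 8 BPA and 8 control libraries. The unadjusted p was 0.00326 for Gm34776, 0.00466 for Hist1h2al, 0.00746 for A330049N07Rik, 0.00963 for Cwc22 and 0.00979 for BC023719 by the exact test. It was 0.0255 for Gm5898, 0.0289 for Gm42743 and 0.134 for Gm9347 by the same exact test. These members were picked because their split or their p was among the most extreme of the list, so an unadjusted p is no call. The exact test also takes every library as independent and does not separate the sexes. Litter is not labelled, so littermates, if there were any, were counted as separate observations, here and in the limma-voom fit.

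By sex the states were close to even. Members were on in 71.6% of states in female and 74.1% in male libraries. More female than male libraries were on for 12 members, fewer for 18 and as many for 11, and the difference was at most 3 libraries. In the limma-voom fit of female minus male, 0 of the 40 were called, beside 0.0673% of all genes, and 1 had an unadjusted p below 0.05, beside 4.35%. That 1 was Gm9347, with 1.69 ± 0.48 (log2, SE) and a limma-voom adjusted p of 0.999. It was on in 8 of 8 female and 5 of 8 male libraries. Gm13394 was on in 4 female and 7 male libraries.

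Some protein-coding members are known from tissues other than oligodendrocytes. Lrat, the enzyme that esterifies retinol, was on in 14 libraries at 8.87 to 20.7 CPM and had 0.316 CPM in female BPA 2 and 0.0483 CPM in female control 3. Itga2, a collagen-binding integrin subunit, had 7.11 CPM in male BPA 1, 8.62 CPM in female BPA 3, and 0.348 to 0.962 CPM in the other 6 BPA libraries. In control libraries it had 0.503 CPM in male control 1 and 3.24 to 9.06 CPM in the other 7. Clvs1, a lipid-binding protein known from neurons, had 6.95 and 5.93 CPM in male BPA 4 and female BPA 4, and at most 0.26 CPM in the other 6 BPA libraries. It had 7.82 and 8.74 CPM in male control 1 and 3, 8.63 and 7.32 CPM in female control 2 and 3, and at most 0.341 CPM in the other 4 control libraries. Clvs1 overlaps Asph, Gm11816, Gm11817 and Gm26548 on the other strand.

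Opn4, the melanopsin gene of light-sensitive retinal cells, had 0.208 to 4.3 CPM in BPA and 0.0235 to 2.23 CPM in control libraries. It overlaps the member Gm49012 on the other strand. Ccr6, a chemokine receptor, had 0 to 3.16 CPM in BPA and 0.0332 to 3.18 CPM in control libraries. Fam71b had 0 to 4.89 CPM in BPA and 0 to 3.42 CPM in control libraries. Fam227b was highest in male BPA 2, at 8.63 CPM, and had 0.241 to 3.41 CPM in the other 15. Male BPA 2 is the library with the most astrocyte, precursor, endothelial and mural marker RNA. The part of other cells in this value was not tested. Fam227b overlaps Fgf7 and Galk2 on the other strand and Gm26496 on the same strand. Tuba1c, an alpha-tubulin gene that shares 52.7% of its words with other genes, had 5.93 to 13.7 CPM in 10 libraries and 0.286 to 0.806 CPM in male BPA 2, 3 and 4, male control 4, and female control 1 and 2.

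Libraries could be compared by the share of members in the same state. Over all 120 pairs of libraries the median was 61%, from 31.7% to 92.7%. Pairs of the same exposure had a median of 68.3% (56 pairs, 39% to 92.7%), and pairs of different exposure 58.5% (64 pairs, 31.7% to 78%). With states split at the widest gap, which was chosen after seeing the data, these medians were 61% and 56.1%. Pairs within a group had a median of 65.9% (24 pairs, 39% to 85.4%). Pairs of 2 BPA libraries had a median of 72%, against 59.8% for pairs of 2 control libraries. All these shares also depend on how many members are on, 79.3% of states in BPA and 66.5% in control libraries. They were not adjusted for this. The most alike were male BPA 2 and female BPA 1, in the same state for 38 of 41 members, then male BPA 4 and female BPA 4, for 36. The least alike were female BPA 4 and male control 4, for 13. By sex, pairs of the same sex had a median of 61% and pairs of different sex 63.4%.

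Members could be compared in the same way. The 4 pairs of members within 20 genes of each other were in the same state in a median of 12.5 libraries, and 2 of the 4, Gm13339 with Gm13340 and Gm34776 with A330049N07Rik, in all 16. Among 768 pairs annotated on different chromosomes the median was 10 libraries, and 3 were in the same state in all 16: Gm4076 with Gm13339, Gm4076 with Gm13340, and Gm13443 with AC165951.1. Each of these 3 pairs includes a copy, and where the reads of the copies came from was not tested. AK157302, a copy of Isca1 on chromosome 13, was in the same state as Gm13443 in 15 libraries, off in male BPA 4 and female BPA 4 with 0.026 and 0 CPM.

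Of 47 genes listed as variable between laboratory mouse strains, 37 were in the table and 15 had a mean CPM of at least 1. None of the 15 was a member, because none had a library below 5% of its highest CPM. Listed genes with a lower mean could not be members. Of these, Trim12a (mean 0.438 CPM, highest 1.64 CPM) was below 5% of its highest CPM in 8 libraries. Glo1, which is on that list, ranged from 40.3 to 146 CPM. None of the 346 zinc finger and 34 Trim family genes with a mean CPM of at least 1 was a member. Members were 41 of all 12940 such genes, so 0 in families of this size is near the share over all genes. Gene models without a given name made up 63.4% of members, against 6.91% of all autosomal genes with a mean CPM of at least 1.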

How the data were processed

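RNA of O4-sorted brain cells from 16 mice was made into stranded poly(A) libraries, per the labels' protocols. The tools listed in the submitters' processing notes are STAR 2.5.3a, bcl2fastq 2.20.0.422, DESeq2 1.16.1 and HTSeq 0.6.1p1, and the build is mm39. Per the labels, the deposited table holds raw counts per gene and library, which are whole numbers, and 32 further columns of the authors' normalized values, which were not used here. The unit of these counts could not be checked by code because of how the table is laid out, so the values are described from the labels and the table alone, and limma-voom was used in place of a test on the count scale.

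CPM are counts relative to the column total. For tests, genes with at least 10 counts in enough libraries and 15 in total were kept, which left 16339 genes and 99.947% of counts, and libraries were scaled by TMM factors. limma 3.58.1 in R 4.3.3 (voom, robust empirical Bayes) fitted all 16 libraries with 1 coefficient per group, with Benjamini-Hochberg adjustment over all genes kept, two-sided, with a threshold of 0.05. The fit was also run on simulated counts of 16176 genes, some of them with BPA minus control changes over both sexes. It recovered 63.1%, 86.2% and 100% of genes changed 1.5-fold, 2-fold and 4-fold, and called 9 unchanged genes. What share the fit recovers among members was not tested. For BPA minus control over both sexes, the median SE of the 40 members was 0.95 (log2), against 0.10 over all genes tested. Single values were tested by exact permutation with scipy 1.17.1. Transcripts of GENCODE M21, which matched 31717 of 32207 genes, gave symbols, chromosomes, gene order and sequences. Matching genes were found by blastn 2.17.0, and protein-coding matches were ranked before others, then by alignment score. That release is of another build than the files, so no coordinates are printed.

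The members and lists were chosen with earlier results of these data known. Named by rule were called members, the 15 of highest mean CPM, neighbours in the same state, the 5 most uneven by exposure and by sex, the 5 of smallest p, and genes at the threshold. Got2-ps1, Gm7292, Gm11410, Clvs1, Opn4, Gm49012, Ccr6, Fam71b, Fam227b and AK157302 were named after their values were seen. The results of 1 member are not reported here. Replicate numbers did not pair the libraries.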

Additional observations from a re-analysis of the deposited data

Results flagged for a closer look

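Within each group of 4 libraries, each of 40 members was examined for a library that lies apart from the other 3, by Dixon's test on CPM. Of 160 groups, 42 (26.2%) held such a library, in 26 members, with 13 libraries low and 29 high. Chance gives about 1 in 20 groups, but the members were chosen for a wide spread between libraries, so this share is a description of the rule.

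The library male BPA 1 was high for Tuba1c at 6.03 CPM, Itga2 at 7.11 CPM and Gm6166 at 7.74 CPM and low for Gm13339 at 0.0286 CPM and Gm13340 at 2.34 CPM. In its group, male BPA 2 was high for Glns-ps1 at 13.6 CPM and Got2-ps1 at 2.37 CPM. The library male BPA 4 was high for A330049N07Rik at 5.96 CPM, Gm34776 at 4.42 CPM, Clvs1 at 6.95 CPM, Gm10320 at 3.88 CPM, 2610507I01Rik at 2.16 CPM and Gm9347 at 4.89 CPM. In its group, female BPA 1 was high for Got2-ps1 at 2.43 CPM. The library female BPA 2 was high for Pcna-ps2 at 8.47 CPM and low for Cwc22 at 11.1 CPM. In its group, female BPA 3 was high for Ccr6 at 3.16 CPM, Itga2 at 8.62 CPM and Fam227b at 3.41 CPM and low for Gm10263 at 0 CPM, Gm11410 at 0.318 CPM, Gm13339 at 0.049 CPM and Gm13340 at 2.38 CPM. The library female BPA 4 was high for Clvs1 at 5.93 CPM. In its group, male control 2 was high for Gm42743 at 0.0398 CPM and Gm6166 at 7.68 CPM and low for Cwc22 at 9.59 CPM. The library male control 3 was high for Gm5898 at 2.26 CPM, Gm9347 at 3.26 CPM and Gm45246 at 2.26 CPM and low for Gm13394 at 0.0997 CPM, Eif5al3-ps at 0.133 CPM and Gm13339 at 0.0665 CPM. In its group, male control 4 was high for Got2-ps1 at 3.11 CPM. The library female control 2 was low for Got2-ps1 at 0.134 CPM. In its group, female control 3 was high for Gm45246 at 1.67 CPM and Gm6166 at 6.76 CPM. The library female control 4 was high for Gm4076 at 45.4 CPM, Gm11410 at 5.21 CPM, Gm13339 at 11.5 CPM and Gm13340 at 798 CPM and low for Opn4 at 0.0235 CPM.

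The largest numbers were in female BPA 3 with 7, male BPA 4 with 6 and male control 3 with 6, and none were in male BPA 3, male control 1 and female control 1. For Gm42743 in male control 2 the value is 0.0398 CPM beside 3 libraries at 0, which is within counting error. No explanation was tested.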

How the results depend on the processing

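Counts of genes called at an adjusted p below 0.05 by limma-voom, over all genes, were small and moved with single libraries. Over both sexes 3 genes were called (0 to 5 with 1 library left out, 0 with a replicate block), in males 1 (0 to 3 with 1 library left out) and in females 0. Without the low-count filter 2 genes were called in males and 2 in females. Without female control 4 the difference between the sexes in the BPA effect gave 3 genes instead of 0, and over both sexes and in males it gave the highest counts, 5 and 3. Female minus male gave 11 genes (9 to 14 with 1 library left out). Without 1 library at a time the BPA effect in females minus that in males gave 0 to 3 genes. Of 8 members whose differences are given, all kept their direction in 21 alternatives each, and Hist1h2al alone crossed the threshold, without female control 4 (4.35, adjusted p 0.0217; range over alternatives 0.0217 to 0.723). With 1 library left out the differences were 3.29 to 4.55 for Gm34776, 3.35 to 4.68 for A330049N07Rik, 1.2 to 2.15 for Gm9347 and 1.96 to 2.86 for Gm5898. Same-numbered libraries of different groups deviated together in 6 of 24 pairs (r over 0.1, median 0.02), so the numbers do not pair them, and 3 of 16 libraries correlated best with their own number.

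The rule gave 22 members with off set below 2% of the highest CPM and 83, among them all 41, below 10%. It gave 69 with a mean CPM of at least 0.5, 25 with at least 2, and 37 to 43 with 1 library left out. Members on in more BPA than control libraries numbered 17 to 22 under other thresholds or the widest gap, which was chosen after seeing the data, and 24 to 29 with 1 library left out. Members on in more female than male libraries numbered 8 to 14 under other thresholds and 13 to 22 with 1 library left out, since even counts become uneven. At 2% the median share in the same state was 81.7% within and 78% between exposures. With 1 library left out these shares were 65.9% to 68.3% and 58.5% to 59.8%. DESeq2 and edgeR alternatives were not run. Genotype, litter and read placement were not measured, and 0.05 CPM is about 1 or 2 counts at these depths.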
